A study of Homo sapiens with 6 samples.

Results

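The ABC transporters examined here are 8 genes for drug and conjugate exporters, ABCC1, ABCC2, ABCC3, ABCC4, ABCC5, ABCC10, ABCB1 and ABCG2, out of 50868 genes measured by RNA-Seq. They were picked by gene name from the deposited table, and the group was proposed with the pcYY2 to pcCon changes of these same samples already known, ABCC3 having been selected on its change. Their differences between the groups are therefore given as a description, and nothing is read from their results in the test over all genes. The RNA came from HCT116 cells, a human colorectal carcinoma line, that received either a plasmid expressing YY2 (pcYY2, n = 3) or its empty backbone, pcDNA3.1(+) (pcCon, n = 3). YY2 is a zinc finger transcription factor related to YY1. No removal of untransfected cells was stated for these samples, nor whether the 3 samples of a group were separate cultures, so that p values below measure only the spread between these samples. Because whole cultures were sequenced, fewer cells of a kind and less RNA per cell cannot be told apart.

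ABC transporters are membrane proteins that use ATP to move substrates across a membrane. Exporters of the ABCC family (multidrug resistance proteins) pump out organic anions, above all compounds that the cell has joined to glutathione, glucuronate or sulfate. ABCB1 (P-glycoprotein) and ABCG2 (breast cancer resistance protein) expel a wide range of mostly hydrophobic drugs, and all 3 kinds are known for lowering drug levels in tumor cells. In gut epithelium, ABCC2, ABCB1 and ABCG2 face the lumen, whereas ABCC1 and ABCC3 face the blood. NRF2, a transcription factor held down by KEAP1, is known to drive several ABCC genes together with the enzymes of glutathione synthesis.

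Between 15158360 and 29572882 reads were counted per sample, and the deepest library was pcYY2 sample 2. YY2 had an FPKM (reads scaled by gene length and library size) of 2.16 ± 0.397 (SD, n = 3) in pcCon and 11.2 ± 0.333 in pcYY2, so that the libraries matched their labels. YY1 had 13.8 ± 0.998 and 15.4 ± 1.58. Of 10 markers of colorectal epithelium, 6 had an FPKM of at least 1 in every sample, while CDX1 was at 0 and VIL1 and LGALS4 did not exceed 0.00856 and 0.0753. The summed FPKM of these markers was 303 to 315 in pcCon and 395 to 432 in pcYY2, and KRT8, KRT19 and KRT20 rose by 0.67, 0.60 and 1.77 on the log2 scale (adjusted p = 0.0117, 0.00209 and 0.0159, Benjamini-Hochberg adjusted values of edgeR's quasi-likelihood test, as all adjusted p here). The log2 fold changes of EPCAM, CDH1, KRT18 and CDX2 were 0.10, 0.22, 0.13 and -0.06, with adjusted p of 0.139, 0.391, 0.248 and 0.733. Of 10 markers of other cell types, COL1A1 alone exceeded an FPKM of 0.244, at 1.90 to 2.66. The part of the keratin changes in the results below was not tested.

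The exporters differed widely in level. In pcCon, ABCC2 was the highest with an FPKM of 57.2 ± 1.32 (SD, n = 3), followed by ABCC1 with 16.3 ± 0.919 and ABCC4 with 9.52 ± 0.0989. ABCC5 (3.65 ± 0.107), ABCC10 (2.49 ± 0.142) and ABCC3 (2.48 ± 0.0709) formed a middle range. ABCB1 (0.602 ± 0.0221) and ABCG2 (0.373 ± 0.0207) were the lowest. Neighbors in this order did not overlap between samples, except that the ranges of ABCC10 and ABCC3 overlapped. In pcYY2 the order of the upper genes was the same, but ABCC3 (1.13 ± 0.0434) lay apart below ABCC10 (2.77 ± 0.188), and ABCG2 (0.524 ± 0.0294) lay above ABCB1 (0.373 ± 0.0473).

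**Figure D1:**
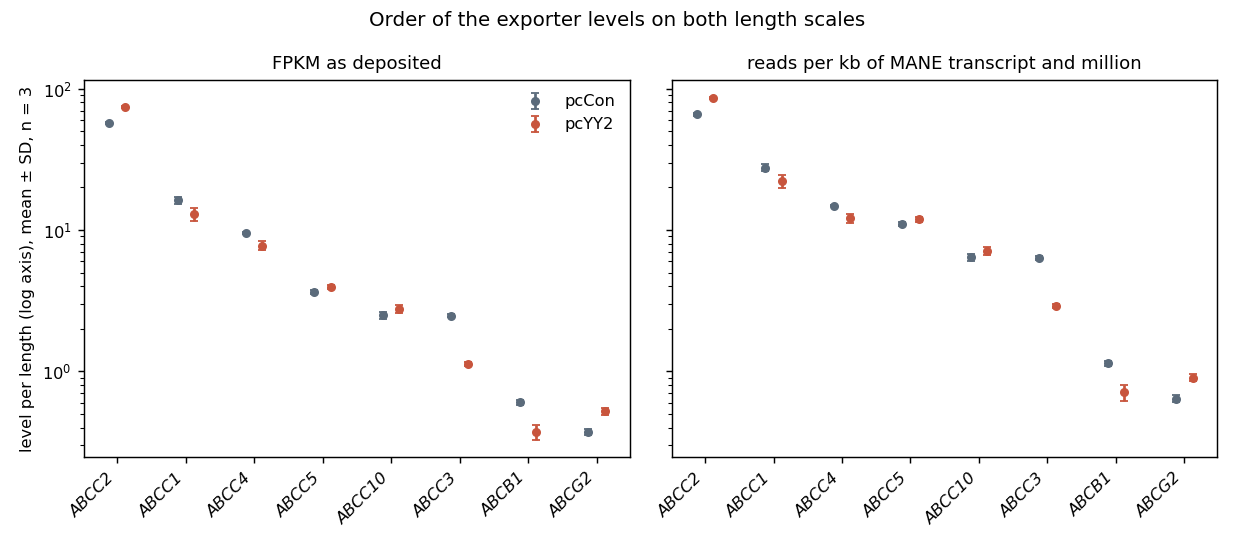
Mean level of each exporter gene in pcCon and pcYY2 (error bars, SD, n = 3) on a log axis, as deposited FPKM on the left and per kilobase of the MANE Select transcript, again scaled by library size, on the right. ABCC2 is the highest in both panels, and the pcCon and pcYY2 points of ABCC3 are the farthest apart.

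The gene length behind the deposited FPKM was 14588 bases for ABCC3 and 6709 bases for ABCC2, whereas the MANE Select transcripts of GENCODE 44, a set with 1 representative transcript per gene, have 5693 and 5806 bases. On the scale of reads per kilobase of that transcript, the pcCon level of ABCC3 was 6.35 ± 0.182 and that of ABCC2 66.1 ± 1.52. The order of the means did not change on this scale in either group, but in pcYY2 ABCC4 (12.1 ± 0.887) and ABCC5 (11.9 ± 0.469) came within their SD of each other. This scale was added after the data were seen.

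RefSeq promoter windows (GRCh38.p14, 250 bases before to 50 after a start) were matched for 6 of the 8 genes, all but ABCC1 and ABCC3, in 12 windows. They were searched on both strands for CGCCATNTT, the consensus of YY1, whose zinc fingers YY2 largely shares, for its core GCCAT, which the consensus contains, and for TGACNNNGC, the core of the antioxidant response element bound by NRF2. These occurred in 3.19%, 37.8% and 13.3% of all 35116 windows. The full consensus was in none of the 12 windows. The upstream 250 bases are shown for ABCC2 and ABCC4, exporters whose levels differed in opposite directions, with the motif found in capitals: ABCC2 on the plus strand, chr10:99782390-99782639, has the reverse complement of GCCAT (its first base in the window at -68), and ABCC4 on the minus strand, chr13:95301452-95301701, has the reverse complement of TGACNNNGC (at -149).
ABCC2: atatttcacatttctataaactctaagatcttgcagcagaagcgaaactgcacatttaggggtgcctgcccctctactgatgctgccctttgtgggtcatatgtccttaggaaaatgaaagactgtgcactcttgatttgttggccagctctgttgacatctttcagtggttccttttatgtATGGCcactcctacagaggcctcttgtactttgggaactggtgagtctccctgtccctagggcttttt
ABCC4: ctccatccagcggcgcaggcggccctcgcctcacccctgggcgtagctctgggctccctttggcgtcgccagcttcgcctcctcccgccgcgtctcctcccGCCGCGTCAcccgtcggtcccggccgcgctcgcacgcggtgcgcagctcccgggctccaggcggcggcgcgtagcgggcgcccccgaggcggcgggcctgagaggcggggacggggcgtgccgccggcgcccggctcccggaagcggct
The core GCCAT also lay in 1 window each of ABCC10 and ABCB1, and TGACNNNGC in 1 window each of ABCC10 and ABCG2. A match is only an occurrence of these letters.

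ABCC2 encodes the apical pump for glutathione and glucuronide conjugates. Its FPKM was 58.8, 56.5 and 56.5 in the pcCon samples and 74.7, 72.4 and 75.4 in the pcYY2 samples, from 5746 to 14370 reads per sample. All pcYY2 samples lay above all pcCon samples. The log2 fold change was 0.39 (standard error 0.0366), or 1.31-fold. Shares of the summed FPKM, here and below, depend on the gene lengths behind the deposited FPKM (6709 bases for ABCC2, 14588 for ABCC3). They were not computed per MANE Select transcript. ABCC2 held 61.8% ± 0.127 (SD, n = 3) of the summed FPKM of the 8 genes in pcCon and 71.6% ± 1.18 in pcYY2, and the sum itself was 92.6 ± 2.19 and 104 ± 3.78.

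ABCC1 exports glutathione conjugates and leukotriene C4 across the basolateral membrane. Its FPKM was 17.3, 15.7 and 15.8 in pcCon and 14.0, 11.4 and 13.6 in pcYY2. Every pcYY2 sample was below every pcCon sample, with pcYY2 sample 2 the lowest. The log2 fold change was -0.31 (standard error 0.0847), or 0.806-fold. Its share of the summed FPKM was 17.6% ± 0.573 in pcCon and 12.5% ± 0.899 in pcYY2.

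ABCC3, on GRCh38 chromosome 17 from 50634777 to 50692252 on the plus strand (ENSG00000108846), encodes a basolateral pump for glucuronides and bile salts. Its FPKM was 2.41, 2.55 and 2.47 in pcCon and 1.08, 1.14 and 1.17 in pcYY2. The counts behind these values were 640, 679 and 546 reads in pcCon and 242, 493 and 313 in pcYY2. The groups were widely separated, and within each group the samples were tight, with a coefficient of variation of 2.86% in pcCon and 3.84% in pcYY2. The lowest pcCon value exceeded the highest pcYY2 value by 1.05 on the log2 scale. The log2 fold change was -1.12 (standard error 0.0713), or 0.462-fold, and in size it ranked 87 among 12015 genes. Its share of the summed FPKM was 2.68% ± 0.130 in pcCon and 1.09% ± 0.0633 in pcYY2. By log2 fold change, the blood-facing pumps ABCC3 (-1.12) and ABCC1 (-0.31) were both lower. Of the lumen-facing pumps, ABCC2 (0.39) and ABCG2 (0.53) were higher and ABCB1 (-0.66) was lower. ABCC4 (-0.29), ABCC5 (0.13) and ABCC10 (0.17) were not given a side here, so this grouping leaves them out. The membrane side of all these pumps was not measured in these cells.

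**Figure D2:**
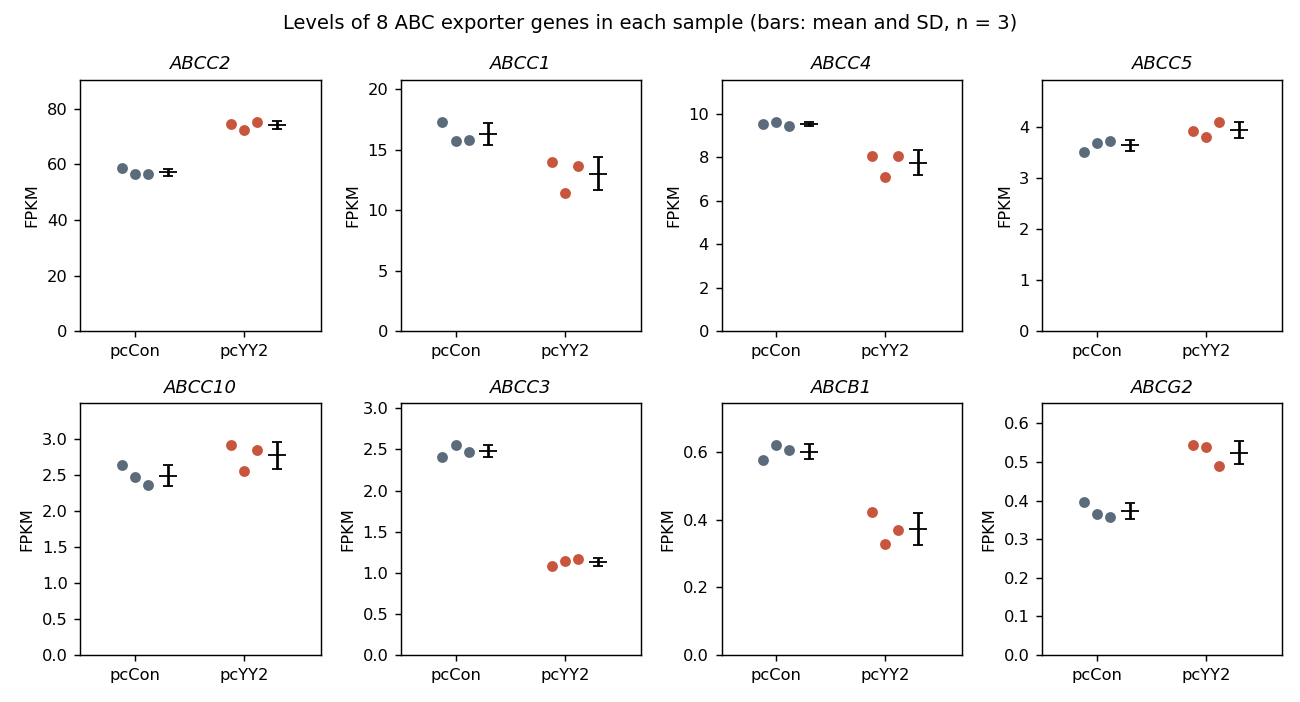
FPKM of the 8 exporter genes in each of the 3 pcCon and 3 pcYY2 samples (points in the order of the sample numbers), with mean and SD beside them and each axis starting at 0. The groups are separate in all genes but ABCC10. They are also separate in 35.8% of all 12015 tested genes. In the fit of 18877 genes from which ABCB1 and ABCG2 are described, that share is 29.8%. The exporters were proposed with this contrast already known. Among them, the gap that is widest on the log2 scale is that of ABCC3 (2.41 to 2.55 against 1.08 to 1.17).

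ABCC4 and ABCC5 export cyclic nucleotides and nucleotide analogs, and ABCC4 also prostaglandins. The FPKM of ABCC4 was 9.51, 9.63 and 9.43 in pcCon and 8.06, 7.08 and 8.07 in pcYY2. The groups did not overlap, and the log2 fold change was -0.29 (standard error 0.0629), or 0.820-fold. ABCC5 had an FPKM of 3.52, 3.69 and 3.73 in pcCon and 3.93, 3.80 and 4.11 in pcYY2. Here the groups were separate only narrowly, by 0.0277 on the log2 scale, and the log2 fold change was 0.13 (standard error 0.0544). The differences of both nucleotide exporters thus had opposite signs.

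ABCC10 transports taxanes and other lipophilic drugs. Its FPKM was 2.64, 2.47 and 2.36 in pcCon and 2.91, 2.56 and 2.85 in pcYY2, and the groups overlapped. The log2 fold change was 0.17 (standard error 0.0788). ABCC10 shares 76 exon bases with DLK2 on the opposite strand, a gene with 23 to 43 reads per sample against 464 to 982 for ABCC10, and it was not stated whether the counting used the strand. No exon base of the other 7 exporters was shared with another gene in GENCODE 44.

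ABCB1 and ABCG2 were counted at much lower depth, with 64 to 112 and 39 to 115 reads per sample. The FPKM of ABCB1 was 0.578, 0.621 and 0.608 in pcCon and 0.423, 0.329 and 0.369 in pcYY2. All pcYY2 samples were below the pcCon samples. The log2 fold change was -0.66 (standard error 0.149), or 0.632-fold. ABCG2 had an FPKM of 0.396, 0.365 and 0.357 in pcCon and 0.543, 0.539 and 0.490 in pcYY2. All pcYY2 samples were above the pcCon samples. The log2 fold change was 0.53 (standard error 0.157), or 1.44-fold. Their standard errors were the largest among the 8 genes.

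Of the 8 genes, 6 reached the mean FPKM of 1 that was required for the test, with ABCC3 (1.80) just inside it and ABCB1 (0.488) just outside. In edgeR's quasi-likelihood test over 12015 genes, 9.37% of genes were called at a Benjamini-Hochberg threshold of 0.05, 4.52% as higher and 4.85% as lower in pcYY2. Among the 6 genes, ABCC2 was called higher, and ABCC3 and ABCC4 were called lower. ABCB1 and ABCG2, described from a fit over the 18877 genes whose mean FPKM reached 0.1, were not called there, where 4.82% of genes were. Nothing is read from these calls, since this contrast brought the genes together. The median log2 fold change of the 6 genes was -0.08, with 3 higher and 3 lower, and that of all 12015 genes was 0.00197. The groups did not overlap in 5 of the 6 genes and in 35.8% of all genes at that filter, and for the lower filter in both further exporters and in 29.8% of genes. ABCC4 was not called in any of the 6 fits that left out a sample.

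**Figure D3:**
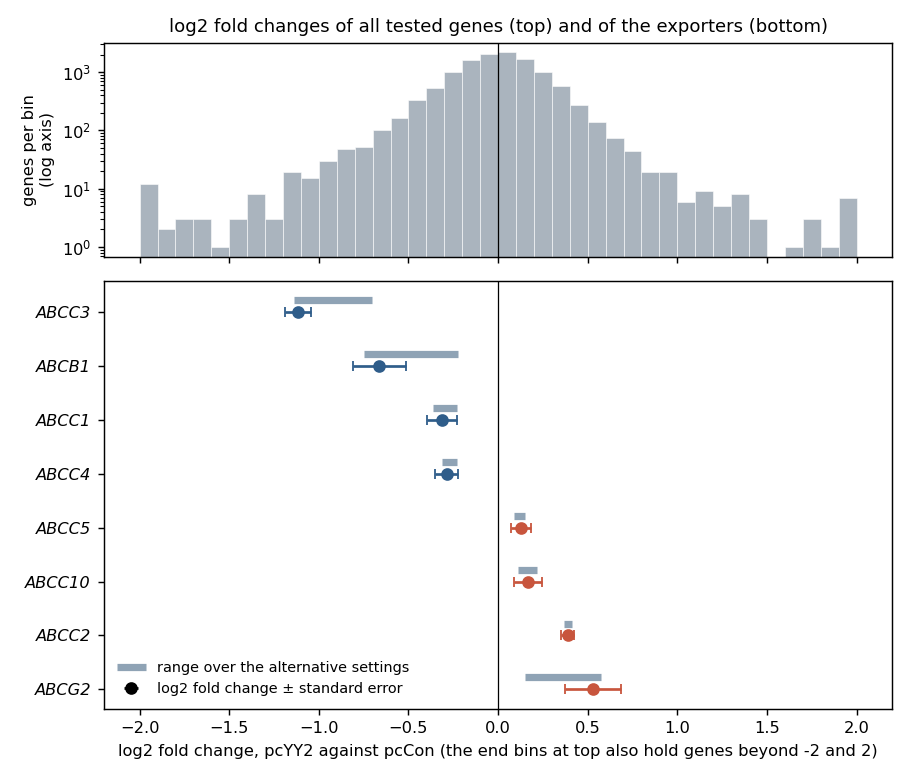
Log2 fold change of pcYY2 against pcCon for all 12015 tested genes (top, genes per bin on a log axis) and for each exporter gene with its standard error (bottom), where grey bars give the range over the alternative settings. ABCC3 lies at -1.12, in the thin left tail, and the other exporters lie between -0.66 and 0.53. The end values, of ABCB1 (-0.66) and ABCG2 (0.53), come from the fit that required a mean FPKM of 0.1. These genes are not among those in the top panel.

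In 6 of the 8 genes (75.0%), pcYY2 sample 2 had the lowest FPKM of the 3 pcYY2 samples, against 36.0% of the 12015 tested genes. ABCB1, which is among these 6, and ABCG2, which is not, lie outside the 12015 genes, so the 2 percentages come from unlike sets. The sample in question, pcYY2 sample 2, was the deepest library, and the part of depth was not tested. Without this sample the log2 fold change was -0.23 for ABCC1 and -0.23 for ABCC4, and -1.13 for ABCC3.

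By the root mean square difference of centered log2 CPM over the 6 samples, the genes most like ABCC3 were FGF19 (0.0507), PCK2 (0.0514), FRS2 (0.0585), PHGDH (0.0850) and SLC7A11 (0.103), against a median of 0.552 over all tested genes. FGF19, an enterocyte hormone that restrains bile acid synthesis, had an FPKM of 17.9 ± 0.544 (SD, n = 3) in pcCon and 8.42 ± 0.414 in pcYY2. PCK2, the mitochondrial phosphoenolpyruvate carboxykinase, had 3.49 ± 0.107 and 1.69 ± 0.0128. PHGDH, the first enzyme of serine synthesis, had 35.2 ± 1.61 and 15.3 ± 1.62. FRS2, an adaptor of FGF receptors, had 2.33 ± 0.118 and 1.05 ± 0.0481. SLC7A11, the cystine transporter, had 19.9 ± 0.296 and 9.55 ± 0.909. The log2 fold changes of these genes ran from -1.19 to -1.03, beside -1.12 for ABCC3. Since ABCC3 was selected on its change in these same samples, the measure mostly returns genes with a similar change. A gene without a change lies far from ABCC3 by construction, which largely sets the median. A link between these genes and ABCC3 was not tested.

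Of 40 other ABC transporters, 16 were tested and 1 was called, or 6.25% against 9.37% of all genes, with a median log2 fold change of 0.04. ABCA7, a phospholipid transporter, rose from 5.41 ± 0.102 to 6.41 ± 0.282 FPKM (log2 fold change 0.26, standard error 0.0547, adjusted p = 0.0345), and lost its call in 5 of the 6 fits without a sample, namely when any pcCon sample or pcYY2 sample 2 or 3 was left out. The 15 other tested genes lay between -0.22 and 0.36. Of the ABCB family, 6 genes of mitochondria or antigen processing were tested, and of the ABCE and ABCF families, which serve translation, 1 and 3. None of the 6 other ABCC genes and none of the 4 other ABCG genes reached the filter.

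Enzymes that make the conjugates which ABCC pumps export were next. Of 43 conjugating enzymes, 42 were in the table, 14 had no read in any sample, and 14 were tested. UGT8, which adds galactose to ceramide in sphingolipid synthesis, was the 1 called gene (7.14%, against 9.37% of all genes). It fell from 6.46 ± 0.293 to 4.71 ± 0.341 FPKM (log2 fold change -0.44, standard error 0.0779, adjusted p = 0.0217), and was not called when any pcCon sample or pcYY2 sample 2 was left out. The median log2 fold change of the list was -0.02. The other 13 genes lay between -0.22 and 0.17.

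Of 28 regulators of such genes, 18 were tested and 1 was called (5.56%, against 9.37% of all genes), with a median log2 fold change of 0.06. KEAP1, which directs the degradation of NRF2, rose from 10.6 ± 0.541 to 14.1 ± 0.788 FPKM (log2 fold change 0.42, standard error 0.0665, adjusted p = 0.0158). It was not called without pcCon sample 1, pcCon sample 2 or pcYY2 sample 3. NFE2L2, which encodes NRF2, is named after its values were seen. Its FPKM was 5.27, 14.7 and 13.8 in pcCon and 6.74, 13.4 and 3.46 in pcYY2. These samples varied far more within each group than those of any exporter, and the log2 fold change of -0.50 had a standard error of 0.543 (adjusted p = 0.586).

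Of 24 NRF2 target genes, 20 were tested, 5 were called lower and 0 higher, or 25.0% against 9.37% of all genes. Several of these were known to be lower in these samples when the list was written. Neither the list's share of calls nor their direction is therefore independent evidence. The list's median log2 fold change was -0.04, with 8 genes higher and 12 lower. NQO1, a quinone reductase, fell from 73.6 ± 2.82 to 50.4 ± 2.91 FPKM (log2 fold change -0.53, standard error 0.0572, adjusted p = 0.00557). SLC7A11 fell as well (log2 fold change -1.05, adjusted p = 0.0014), as did FTL, a ferritin subunit whose reads processed pseudogenes may share (-0.38, adjusted p = 0.0188), and GCLC, the catalytic subunit of glutamate-cysteine ligase (-0.29, adjusted p = 0.0204). SLC7A11 and NQO1 were called in all 6 fits without a sample. FTL was called in 2 of them and lost its call when any pcCon sample or pcYY2 sample 3 was left out. GCLC was called in 3 and lost its call when any pcCon sample was left out.

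Of 39 other carriers for drugs and anions, 13 were tested and 1 was called (7.69%, against 9.37% of all genes), with a median log2 fold change of 0.02. SLC22A5, the carnitine transporter, fell from 1.5 ± 0.0380 to 1.12 ± 0.113 FPKM (log2 fold change -0.41, standard error 0.0916, adjusted p = 0.0396), and it was called without pcYY2 sample 3 but in none of the other 5 fits without a sample.

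**Figure D4:**
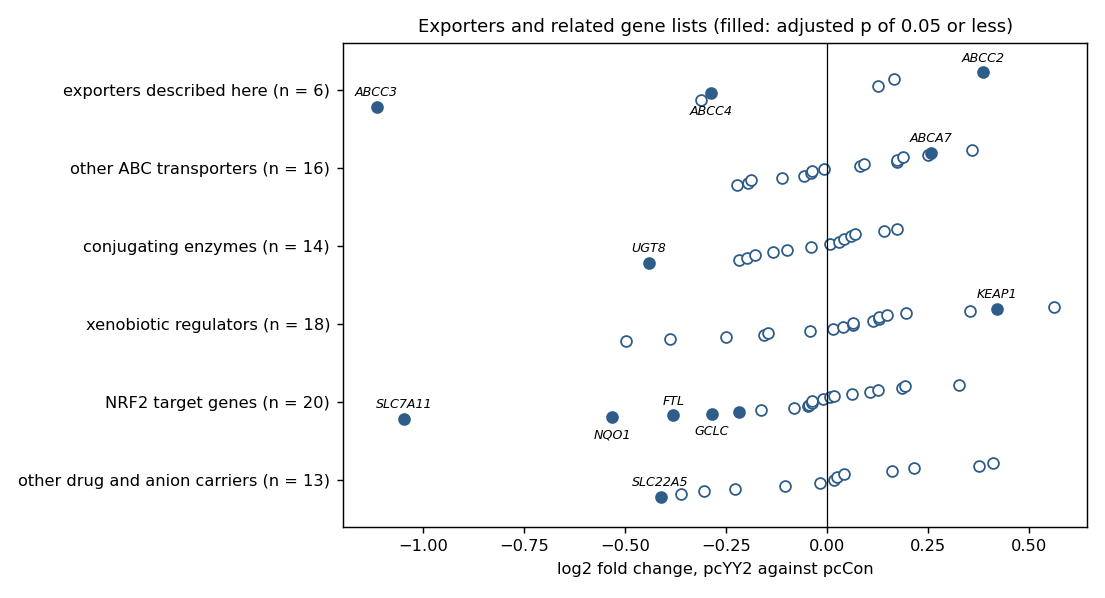
Log2 fold change of pcYY2 against pcCon for the 6 exporters over the FPKM filter and for the tested genes of the related lists, 1 point per gene, with filled points for an adjusted p of 0.05 or less. Each of 4 related lists has 1 filled point, while the NRF2 target list has 5, all left of 0. Several genes of the NRF2 list were known to be lower in these samples when it was written.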

How the data were processed

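RNA-Seq was carried out on 6 HCT116 samples, 3 pcCon and 3 pcYY2. The authors removed rRNA, adapter, short and low-quality reads and aligned the rest to GRCh38 with TopHat, and Cufflinks gave expression values; their processing notes also name Bowtie2 and HTSeq. The authors deposited raw read counts per Ensembl gene, and FPKM, which equals the count over a fixed gene length and the sample's total count. Strand use in counting was not given in the sources used here. The exporters and all lists were chosen with earlier results of these data known.

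Counts were tested with edgeR 4.0.16 (R 4.3.3, TMM, quasi-likelihood test, group as the only term) over the 12015 genes whose mean FPKM reached 1, with Benjamini-Hochberg adjustment at 0.05. ABCB1 and ABCG2 were described from a fit that required 0.1. The standard error was the log2 fold change over the square root of F. Total counts of 15158360 to 29572882 put the floor of 3 reads at 0.101 to 0.198 CPM, which covers counting error only. Genes were named by a fixed rule: the exporters, YY2, YY1, markers, up to 5 called genes with the smallest p per list, and the 5 genes nearest ABCC3; NFE2L2 was added afterwards, and 1 called gene is not reported here. Where a symbol had 2 rows (AKR1C3), the row with most reads was used. Alternatives were other filters and scalings, a replicate block, DESeq2 1.42.0, limma 3.58.1 on log2(FPKM + 1), leaving out each sample and, added after the data were seen, levels per MANE Select transcript. The scripts were tested on simulated data. GENCODE 44 held 49659 (97.6%) of the gene identifiers.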

Additional observations from a re-analysis of the deposited data

How the results depend on the processing

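ABCC3 had a log2 fold change between -1.14 and -0.71 over 13 alternatives and between -1.14 and -1.08 when a sample was left out. With limma on log2(FPKM + 1), where the added 1 shrinks low genes by construction, it was -0.71 for ABCC3, -0.22 for ABCB1 and 0.15 for ABCG2. As the exporters were chosen on this contrast, their values under the alternatives are a description only.

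Samples with the same replicate number had a mean correlation of deviations of -0.00782, so that no pairing was visible. The mean for other numbers (0.00391) follows from it, because deviations were centered within each group. With 3 samples per group, these values cannot settle whether the samples were paired. With the replicate block, 101 genes were called (51 higher, 50 lower), 2 of them exporters, and the lists had 0 other ABC transporters, 0 conjugating enzymes, 0 regulators, 2 NRF2 targets and 0 other carriers. Without a sample, 285 to 805 genes were called (138 to 412 higher, 147 to 393 lower) in place of 1126, namely 324, 285 and 311 without pcCon samples 1, 2 and 3, and 545 and 354 without pcYY2 samples 2 and 3. The exporters then had 2 calls each time, the NRF2 list 2 to 4 and the other lists 0 to 1 each. DESeq2 called more genes in all (1439 in place of 1126), with 5 exporters and 2 other carriers. Of these exporters, ABCB1 came from the fit that required a mean FPKM of 0.1. Other ABC transporters had 2 calls when a mean FPKM of 0.1 was required (910 genes called) and with DESeq2 size factors (1144), and 0 with limma (1024). Other carriers had 0 when a mean FPKM of 0.1 was required, without a filter (920 genes called) and with limma. The causes were not tested. Depth limits ABCB1 and ABCG2, with at most 115 reads in a sample.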
